A study of Mus musculus with 4 samples.

Results

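The Ikaros zinc finger family comprises 5 mouse genes, Ikzf1 (Ikaros), Ikzf2 (Helios), Ikzf3 (Aiolos), Ikzf4 (Eos) and Ikzf5 (Pegasus). The members were chosen by gene symbol from a table of read counts, and all 5 were present among its 24391 genes. Ikaros proteins bind DNA through N-terminal zinc fingers and pair with each other through C-terminal zinc fingers. They recruit histone deacetylase complexes and are required for normal lymphocyte development. In T-cell precursors Ikaros is known to restrain genes that Notch signaling activates, and Ikaros and the Notch effector RBPJ recognize DNA motifs that share a core.

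RNA-Seq was performed in Beko cells, a mouse progenitor T-cell (pre-T) line in which Notch signaling is constitutively active. Both groups, of 2 libraries each, received the γ-secretase inhibitor (GSI) DAPT for 48 h, which blocks the release of the Notch intracellular domain. For the washout experiments, the methods of the study add that the inhibitor was washed off and renewed at 24 h. The GSI group was collected at 48 h, and cells of the Washout group were freed of the inhibitor by washing and grown for 24 h more. The labels give the dose as 10 mg/ml, while the methods of the study give the same figure in µg/ml. No allele or transgene is named for either group, and all libraries come from the same cell line. The comparison asks which transcripts change when the block of Notch cleavage is lifted. No library of cells that were washed at 48 h and left in the inhibitor for the same time was used here. Washout, the washing at 48 h and the longer culture therefore cannot be told apart. Nothing in the labels says that replicates were separate cultures, and p-values therefore measure only the spread between these libraries.

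The libraries held between 13716199 and 36364200 counted reads, and replicate 1 was the deeper one in both groups. All 16 markers of progenitor T cells were tested, and their summed level was 9234 and 9175 CPM (read counts scaled by library total and TMM factor) in GSI and 8311 and 7821 CPM in Washout. At the adjusted p below 0.05 that is used throughout, 6 of these markers were lower, among them Gata3 (log2 fold change -1.67), Tcf7 (-0.87) and Bcl11b (-0.72), and 3 were higher, Ptcra (2.37), Cd3g (0.86) and Rag2 (0.64), against 25.4% and 27.0% of all genes tested. Single markers here were named after their values were seen. Of 8 B-cell markers 7 were too low to test, with Pax5, Ebf1 and Ms4a1 at 0 in every library. The list summed to 9.10 and 5.96 CPM in GSI and 3.26 and 2.01 CPM in Washout. Most of it was Blnk (8.31 and 5.00 CPM in GSI, log2 fold change -1.50), which was lower at the adjusted p. Of 8 myeloid markers 7 were too low to test, with Lyz2 and Elane at 0, and the list summed to 49.4 and 38.4 CPM in GSI and 5.58 and 4.99 CPM in Washout, nearly all of it Itgam in GSI (48.7 and 37.9 CPM). Of 8 mast-cell markers, Fcer1a, Ms4a2, Tpsb2 and Cma1 were at 0, and the list summed to 275 and 167 CPM in GSI and 45.7 and 30.5 CPM in Washout, nearly all of it Cpa3 (176 and 77.4 CPM in GSI) and Kit (98.8 and 89.3 CPM in GSI). The erythroid list, with Hbb-b1 at 0, went from 23.8 and 21.5 to 11.3 and 10.8 CPM. Its other genes, Gata1 (log2 fold change -1.26), Klf1 (-1.18) and Epor (-0.86), were all lower at the adjusted p. The fibroblast list, with Dcn at 0, went from 47.6 and 45.2 to 27.9 and 36.5 CPM. Nearly all of it was Pdgfrb (44.5 and 42.2 CPM in GSI, log2 fold change -0.51), which was lower at the adjusted p. So was Col1a1 (0.906 and 1.23 CPM in GSI, -3.59), while Col1a2 did not pass. Col1a1 had only 4 and 0 counts in Washout, so the size of its fall is uncertain. The part of these lists in the changes described here was not tested. In bulk RNA, fewer cells of a type and less RNA per cell cannot be told apart.

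Promoter windows of 250 bases before to 50 bases after the annotated start were taken from RefSeq (mouse build GRCm38.p6), and 2 of the 5 members matched, Ikzf1 with 2 windows and Ikzf5 with 1. They are shown because one of these genes fell and the other did not pass the test, and because the core GGGAA is shared by the motifs of Ikaros and RBPJ. Ikzf2, Ikzf3 and Ikzf4 had no entry. Both strands were searched for TGGGAA and for the shorter GGGAA, so that every TGGGAA also counts as GGGAA. Capitals mark GGGAA, or TTCCC where the match lies on the opposite strand, and each window is written 5′ to 3′ on the strand of the gene.
Ikzf1, chr11:11685675-11685974, plus strand: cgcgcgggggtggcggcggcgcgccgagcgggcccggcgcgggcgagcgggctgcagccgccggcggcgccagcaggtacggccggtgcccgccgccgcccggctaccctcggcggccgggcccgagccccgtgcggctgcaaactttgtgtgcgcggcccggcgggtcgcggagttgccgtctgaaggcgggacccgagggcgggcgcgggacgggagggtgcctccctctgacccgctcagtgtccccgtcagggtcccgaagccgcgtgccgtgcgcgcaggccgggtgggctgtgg
Ikzf1, chr11:11689927-11690226, plus strand: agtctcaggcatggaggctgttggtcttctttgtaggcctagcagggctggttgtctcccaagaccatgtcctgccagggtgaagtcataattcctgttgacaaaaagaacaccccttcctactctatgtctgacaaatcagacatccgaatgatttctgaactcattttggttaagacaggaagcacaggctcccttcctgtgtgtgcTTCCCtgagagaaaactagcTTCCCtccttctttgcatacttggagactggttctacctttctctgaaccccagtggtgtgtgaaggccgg
Ikzf5, chr7:131410429-131410728, minus strand: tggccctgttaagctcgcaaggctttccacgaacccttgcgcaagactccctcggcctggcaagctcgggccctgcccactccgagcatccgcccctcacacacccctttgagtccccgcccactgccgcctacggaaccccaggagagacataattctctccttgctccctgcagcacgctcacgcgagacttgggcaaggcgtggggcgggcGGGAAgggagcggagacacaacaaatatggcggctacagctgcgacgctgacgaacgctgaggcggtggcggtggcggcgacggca

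The first Ikzf1 window had a GC content of 81.3% and 52 CG dinucleotides, against medians of 52.7% and 7 over all 32851 windows, and its GC content exceeded that of 99.3% of them. The second had a GC content of 49.0% and 2 CG dinucleotides. The 2 start sites of Ikzf1 thus lie in windows of very different base composition. The Ikzf5 window had a GC content of 65.7% and 27 CG dinucleotides. TGGGAA was found in none of the 3 windows and in 25.6% of all windows. GGGAA was absent from the first Ikzf1 window, matched at -41 and -21 on the opposite strand in the second, and matched at -36 in the Ikzf5 window (first base of the match relative to the start site). It was found in 62.7% of all windows. The counts are per gene, so they do not say which Ikzf1 start was used.

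Ikzf1 (ENSMUSG00000018654.10), the founding member and the most abundant one in these cells, lies on the plus strand of chr11:11585006-11672929 (mm9, as for all gene positions here). Its level was 762 and 662 CPM in GSI and 384 and 343 CPM in Washout. Both Washout libraries lay far below both GSI libraries, and 39.1% of all genes tested were likewise lower without overlap. Ikzf1 was 1.96-fold lower upon washout, with a log2 fold change of -0.97 (SE 0.13, 95% interval -1.28 to -0.66, adjusted p = 0.0016, edgeR quasi-likelihood test with Benjamini-Hochberg adjustment). A gene was called deregulated at an adjusted p below 0.05 and an absolute log2 fold change above 1, the thresholds of the study. Ikzf1 passed the former and missed the latter. It crossed -1 when GSI replicate 2 (-1.05) or Washout replicate 1 (-1.05) was left out and under 4 other settings, and its adjusted p stayed below 0.05 under all 14 alternatives. The interval contains -1, so these libraries do not place the fall on either side of that threshold.

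Ikzf2 (ENSMUSG00000025997.7), a family member prominent in regulatory T cells and also expressed in T-cell precursors, lies on the minus strand of chr1:69577788-69732534. Its level was 104 and 84.4 CPM in GSI and 34.8 and 33.6 CPM in Washout. The groups were widely separated, and the Washout libraries were close to each other. Ikzf2 was 2.75-fold lower upon washout (log2 fold change -1.46, SE 0.13, 95% interval -1.76 to -1.15, adjusted p = 0.00047, edgeR). It was the only one of the 4 tested members past both thresholds. It was past both under all 14 alternatives too, with log2 fold changes of -1.66 to -1.31. Of all genes tested, 6.95% had a lower log2 fold change than Ikzf2, and 13.4% had a lower one than Ikzf1.

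Ikzf3 (ENSMUSG00000018168.8), which is best known from the B-cell lineage, lies on the minus strand of chr11:98326216-98407345. Its level was 109 and 119 CPM in GSI and 104 and 95.8 CPM in Washout. The Washout libraries were lower without overlap, by a margin smaller than the gap between the GSI libraries. The log2 fold change was -0.18 (SE 0.10, 95% interval -0.42 to 0.06, adjusted p = 0.165, edgeR), and a fall beyond 0.42 on the log2 scale lies outside that interval. It turned to 0.04 when GC content and length were corrected for.

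Ikzf5 (ENSMUSG00000040167.9), a divergent member whose DNA motif differs from that of the others, lies on the minus strand of chr7:138532166-138554035. Its level was 38.8 and 36.5 CPM in GSI and 49.0 and 39.1 CPM in Washout. Washout replicate 1 stood above the other libraries, and Washout replicate 2 was higher than GSI replicate 1 by less than 1 CPM. The log2 fold change was 0.23 (SE 0.14, 95% interval -0.10 to 0.56, adjusted p = 0.195, edgeR). It was 0.057 without Washout replicate 1 and 0.40 without Washout replicate 2 (adjusted p = 0.0311, edgeR), so that its size rested on which of these libraries was kept. Ikzf3 and Ikzf5 each passed the adjusted p under 2 of the 14 alternatives and the fold threshold under none.

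Ikzf4 (ENSMUSG00000002578.8), which acts with Foxp3 in regulatory T cells, lies on the minus strand of chr10:128067899-128083047. It had 14 and 4 counts in GSI and 4 and 1 in Washout, that is 0.438 and 0.274 CPM against 0.118 and 0.0744 CPM. For comparison, a limit of 3 counts corresponds to 0.0881 to 0.223 CPM in these libraries. Ikzf4 was above that limit by counts in both GSI libraries and in Washout replicate 1, below it in Washout replicate 2, and was removed by the filter on low counts. The ratio of its summed counts, Washout over GSI and corrected for depth, was 0.273, with a 95% interval of 0.0791 to 0.762 that covers counting error alone. Tested without the filter, it had a log2 fold change of -1.76 (SE 0.97, adjusted p = 0.142, edgeR) and did not pass the test. The counting interval excludes a ratio of 1, but it leaves out the spread between replicates.

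**Figure D1:**
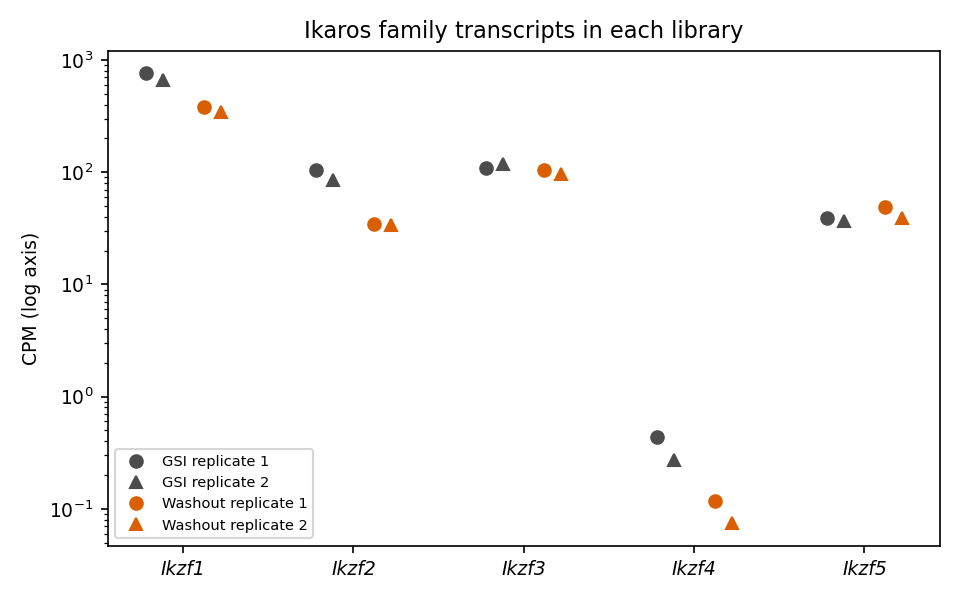
Level of each Ikaros family gene in CPM on a log axis, with 1 point per library (grey for GSI, orange for Washout, circles for replicate 1 and triangles for replicate 2). The Washout points of Ikzf1 and Ikzf2 sit well below the GSI points, those of Ikzf3 and Ikzf5 lie close to them, and Ikzf4 stays under 1 CPM.

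Of the tested members, 1 of 4 was past both thresholds in the lower direction (Ikzf2) and none in the higher direction. Across all 12266 genes tested, 19.5% were past both thresholds, with 11.7% lower and 7.74% higher upon washout. At the adjusted p alone, 2 of 4 members were lower (Ikzf1 and Ikzf2), against 25.4% of all genes. The median log2 fold change was -0.58 for the 4 members and -0.01 for all genes. When libraries were scaled by total counts alone, the median of all genes moved to -0.21, and the values of all members moved down with it.

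**Figure D2:**
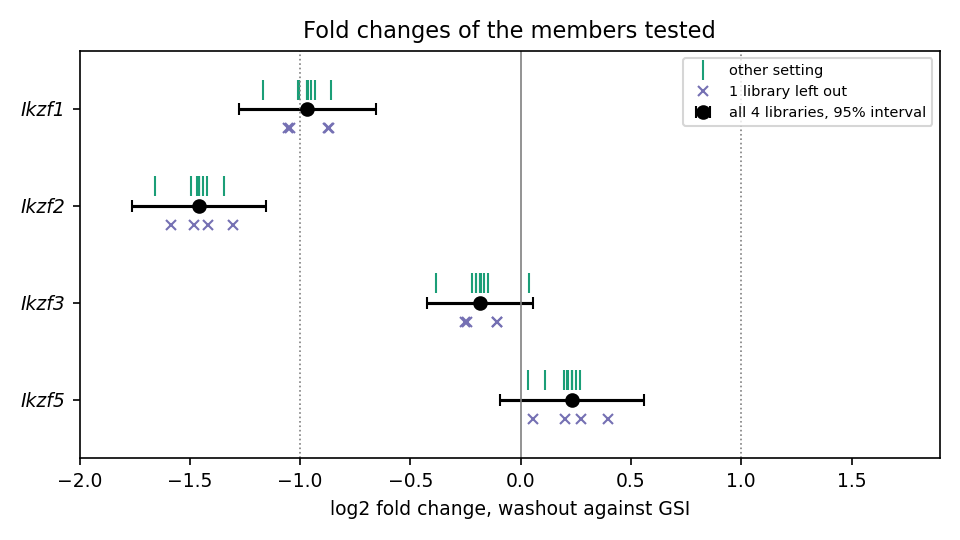
Log2 fold change, Washout against GSI, of the 4 members tested (black points, with 95% intervals from the edgeR fit), with the values from other settings (green ticks) and from fits leaving out 1 library (purple crosses). Dotted lines mark log2 fold changes of -1 and 1: Ikzf2 stays beyond -1 in every fit, Ikzf1 straddles it, and the intervals of Ikzf3 and Ikzf5 include 0.

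Levels of different genes were compared as RPKM, that is CPM per kilobase of exon (mean ± SD, n = 2 libraries per group). Exon lengths came from another annotation than the one used for counting. Small gaps between members therefore also depend on how well these annotations match. Ikzf1 stood at 120.2 ± 12.0 RPKM in GSI and 61.4 ± 4.93 RPKM in Washout. On the mean over all libraries it was higher than 94.4% of the tested genes that had an annotated exon length. Ikzf3 followed with 13.0 ± 0.799 RPKM in GSI and 11.4 ± 0.686 RPKM in Washout. Ikzf1 thus exceeded every other member by far more than the spread between libraries in both groups.

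Ikzf2 stood at 9.99 ± 1.44 RPKM in GSI and 3.64 ± 0.0910 RPKM in Washout. Ikzf5 stood at 7.70 ± 0.336 RPKM in GSI and 9.02 ± 1.44 RPKM in Washout. Ikzf2 lay above Ikzf5 in both GSI libraries and below it in both Washout libraries, so these members exchanged ranks. In Washout, the gap between the means of Ikzf3 and Ikzf5 was within about 2 SD of Ikzf5, and Ikzf3 exceeded Ikzf5 by ratios of 1.19 and 1.37 in the single libraries. Ikzf4 was last in every library, with means of 0.0594 and 0.0160 RPKM.

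The summed RPKM of the family was 160.2 and 141.8 in GSI and 90.6 and 80.5 in Washout, a ratio of 0.567 between the group means. Since Ikzf1 makes up most of this sum, its fall carries most of the decrease. The share of Ikzf1 was 80.4% and 78.8% in GSI and 71.7% and 72.0% in Washout. The share of Ikzf2 was 6.87% and 6.32% in GSI and 4.08% and 4.44% in Washout. Both shares were lower in both Washout libraries.

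The share of Ikzf3 was 7.77% and 9.57% in GSI and 13.2% and 13.6% in Washout. The share of Ikzf5 was 4.96% and 5.26% in GSI and 11.1% and 9.94% in Washout. These shares were higher in both Washout libraries. Neither gene had a log2 fold change that passed the test, and the share of an unchanged gene rises where the family sum falls. Ikzf4 made up at most 0.0456% of the family in any library.

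**Figure D3:**
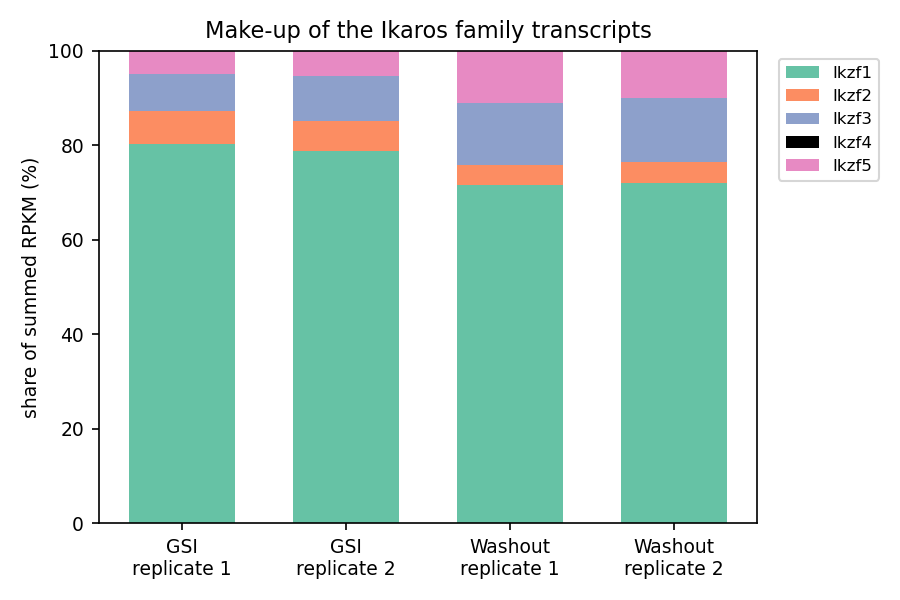
Share of each member in the summed RPKM of the Ikaros family, in percent, with 1 bar per library. Ikzf1 takes the largest part of every bar, between 71.7% and 80.4%, and the segments of Ikzf3 and Ikzf5 are wider in both Washout bars. The Ikzf4 segment is too thin to be seen.

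Ratios between members within a library do not depend on how libraries are scaled. The ratio of Ikzf1 to Ikzf3, in RPKM, was 10.3 and 8.23 in GSI and 5.45 and 5.29 in Washout. The ratio of Ikzf2 to Ikzf3 was 0.884 and 0.660 in GSI and 0.310 and 0.326 in Washout. The fall of Ikzf1 and Ikzf2 relative to Ikzf3 was thus seen in each Washout library.

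The ratio of Ikzf1 to Ikzf5 was 16.2 and 15.0 in GSI and 6.47 and 7.25 in Washout, and that of Ikzf2 to Ikzf5 was 1.39 and 1.20 in GSI and 0.369 and 0.447 in Washout. The ratio of Ikzf1 to Ikzf2 went the other way, from 11.7 and 12.5 in GSI to 17.5 and 16.2 in Washout, as Ikzf2 fell more than Ikzf1. The groups did not overlap in any of these ratios. The levels of 77.3% of all genes tested did not overlap either, and no such share was computed for ratios of other genes. The ratios share members, so they are not separate observations. With 2 libraries per group, an exact two-sided permutation test of such a ratio cannot give a p below 0.333.

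For each tested member, the 3 genes with the most similar profile were sought among 9197 genes with a mean log2 CPM of at least 3, as the Euclidean distance between centred log2 CPM values over the 4 libraries. Those of Ikzf1 were Acadl, a mitochondrial fatty acid oxidation enzyme (distance 0.0468), Micall1 (0.0554) and Tax1bp3 (0.0554). Acadl was at 33.5 and 28.0 CPM in GSI against 16.3 and 14.5 CPM in Washout. Those of Ikzf2 were Naip6 (0.0341) and Naip5 (0.0397), which are inflammasome receptors, and Tmem176b (0.0742). Naip5 and Naip6 are near-identical copies, so that reads may be split between them and their values are uncertain.

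Those of Ikzf3 were Sptlc2, a subunit of the enzyme that starts sphingolipid synthesis (0.0302), Zkscan3 (0.0316) and Rap1gds1 (0.0347). Those of Ikzf5 were Pdzd8 (0.0227), the cation channel kinase Trpm7 (0.0234) and Slmap (0.0282). Over 4 libraries many genes share such a profile, and the distances are given as a description.

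The neighbours of the members on the chromosome did not all follow them. Fignl1, an ATPase of homologous recombination, ends 14505 bp from the end of Ikzf1, on the opposite strand, and was 63.9 and 77.3 CPM in GSI and 195 and 164 CPM in Washout. It rose while Ikzf1 fell (log2 fold change 1.35, SE 0.14, adjusted p = 0.00073, edgeR), and was past both thresholds. On the other side of Ikzf1, 4930512M02Rik had no count in any library. Gm11999 and Gm12000 overlap Ikzf1 on the opposite strand and were not analysed here. The strand setting of the counting is not given in the sources used here, so reads from antisense transcripts cannot be told apart from those of Ikzf1.

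Spag16 and Erbb4, the neighbours of Ikzf2, lie 141028 bp and 423155 bp away and had at most 1 count in any library. The neighbours of Ikzf3 did not pass the test. Zpbp2, 5066 bp away, had a log2 fold change of -0.27 (adjusted p = 0.437, edgeR). Grb7, 9529 bp away, had a log2 fold change of 0.01 (adjusted p = 0.981, edgeR), with a sign that turned under 4 settings. A U2 snRNA inside Ikzf3 was not analysed here.

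Near Ikzf4, Suox, the mitochondrial sulfite oxidase, lies 23896 bp away and went from 31.9 and 29.6 CPM to 12.9 and 12.8 CPM (log2 fold change -1.26, SE 0.12, adjusted p = 0.00061, edgeR), past both thresholds. The ribosomal protein gene Rps26, 4337 bp away on the other side, had a log2 fold change of 0.30 (adjusted p = 0.0717, edgeR), and passed under 4 of the 14 alternatives, the replicate block among them (adjusted p = 0.0090). Gm17336 overlaps the start of Ikzf4 on the opposite strand and was not analysed here.

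Ikzf5 starts 80 bp from Acadsb, which runs in the opposite direction and encodes an enzyme of branched-chain amino acid breakdown. Acadsb had a log2 fold change of -0.25 (adjusted p = 0.352, edgeR), which turned to 0.06 without GSI replicate 1. Pstk, 813 bp from the other end of Ikzf5, had a log2 fold change of 0.52 (adjusted p = 0.0659, edgeR). Pstk passed the test under 4 of the 14 alternatives, with an adjusted p of 0.0018 under the replicate block, 0.0068 with thinned counts and the block, 0.0076 without the filter and 0.0358 without Washout replicate 2 (edgeR). The annotated span of Fgfr2 includes Ikzf5, but Fgfr2 had 1 count in all libraries together.

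The partners and described targets of the family were taken from lists compiled from general knowledge of Ikaros biology, not from binding data of these cells. The lists were chosen with earlier results of these data known, so their counts are a description. Genes past both thresholds are named first. The NuRD complex couples nucleosome remodeling to histone deacetylation and is the main corepressor of Ikaros. Of its 13 genes, all tested, 1 was past both thresholds and higher and none lower, against 7.74% and 11.7% of all genes, so that the share of higher genes was that of all genes. This was Rbbp7, a histone chaperone, which went from 155 and 174 CPM to 361 and 302 CPM (log2 fold change 1.01, SE 0.13, adjusted p = 0.0014, edgeR). Its log2 fold change was below 1 when either GSI replicate 1 or Washout replicate 1 was left out and under 5 other settings, which leaves no NuRD gene past both thresholds and higher.

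At the adjusted p alone, 6 NuRD genes were higher and 2 lower, against 27.0% and 25.4% of all genes. Whichever library was left out, 3 of the higher genes (Rbbp7, Hdac2 and Mbd3) and 1 of the lower ones (Chd3) still passed. The further NuRD genes and those of the lists that follow which were not past both thresholds were named after their values were seen. The lower ones were Chd3 and Mta3. Chd3, one of the remodeling ATPases, went from 326 and 300 CPM to 155 and 176 CPM (log2 fold change -0.92, SE 0.11, adjusted p = 0.0012, edgeR). Chd4, the alternative ATPase, was 984 and 995 CPM in GSI and 933 and 926 CPM in Washout (log2 fold change -0.09, adjusted p = 0.537, edgeR). It turned to 0.30 and passed the test when GC content and length were corrected for (adjusted p = 0.0305, edgeR). Mta3 had a log2 fold change of -0.46, which did not pass the test without GSI replicate 2 or Washout replicate 1, and the deacetylase gene Hdac2 one of 0.73. Mta3 also did not pass when GC content and length were corrected for (-0.18, adjusted p = 0.184, edgeR). The median over the complex was 0.20.

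Among 6 genes of other corepressors and of the SWI/SNF ATPase, none was past both thresholds, against 7.74% of all genes higher and 11.7% lower. At the adjusted p alone 3 were higher and none lower, against 27.0% and 25.4% of all genes. These were Rbbp8 (CtIP), with a log2 fold change of 0.89, Ctbp1 with 0.49 and Sin3a with 0.29. Rbbp8 alone passed whichever library was left out. The median of this list was 0.17.

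Ikaros is phosphorylated by casein kinase 2 and dephosphorylated by protein phosphatase 1. In human cells that receive lenalidomide, Ikaros and Aiolos are degraded through the CRL4 ubiquitin ligase with cereblon. No such drug is named for the mouse cells used here. Of 11 genes of these enzymes, none was past both thresholds, against 7.74% of all genes higher and 11.7% lower. At the adjusted p alone 5 were higher, against 27.0% of all genes, and 1 was lower, against 25.4%. The higher ones were Ddb1 (0.74), Cul4b (0.58), Ppp1cc (0.56), Csnk2b (0.46) and Rbx1 (0.42), as log2 fold changes. The lower one was Cul4a with -0.37. Ddb1 and Ppp1cc passed whichever library was left out, and the other 4 did not. Cul4b was at 79.6 and 77.0 CPM in GSI and 139 and 94.3 CPM in Washout, and its log2 fold change was 0.27 without Washout replicate 1 (adjusted p = 0.0909, edgeR). The median of the list was 0.42. Protein levels of the family were not measured here.

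Genes described as targets of both Ikaros and Notch were mostly higher upon washout. Washout lifts the block of Notch itself, so the parts of Notch and of Ikaros in these values cannot be told apart. Of 8 tested genes 6 were past both thresholds and higher and none lower, against 7.74% and 11.7% of all genes. The ninth, Hes5, was too low to test. The median log2 fold change was 1.37.

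Dtx1, a ubiquitin ligase induced by Notch, went from 46.1 and 64.4 CPM to 409 and 605 CPM (log2 fold change 3.20, SE 0.25). Il2ra, the α-chain of the interleukin-2 receptor, went from 1.44 and 1.51 CPM to 12.4 and 14.6 CPM (3.19, SE 0.22). Ptcra, the pre-T-cell receptor α-chain, went from 47.1 and 54.4 CPM to 249 and 276 CPM (2.37, SE 0.12). In these genes every Washout library exceeded every GSI library several times over.

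Hes1, a repressor downstream of Notch, was 21.8 and 7.68 CPM in GSI and 43.6 and 37.9 CPM in Washout (log2 fold change 1.42, SE 0.41, adjusted p = 0.0282, edgeR). Its GSI libraries differed widely. Without GSI replicate 2 its log2 fold change was 0.92, and DESeq2 gave an adjusted p of 0.0715. Nrarp had a log2 fold change of 1.31 and Notch1 one of 1.14, and both were past both thresholds. Nrarp and Notch1 were also named after their values were seen. Notch1 was at 0.98 without GSI replicate 1 and at 0.94 under total-count scaling. Myc, with 0.997, passed the adjusted p and missed the fold threshold. Notch3 had a log2 fold change of 0.14 (adjusted p = 0.499, edgeR), which turned to -0.06 under total-count scaling and to -0.05 without GSI replicate 1. When GC content and length were corrected for, Notch3 was higher at 0.72 and passed the test (adjusted p = 0.0030, edgeR).

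Other lymphoid genes described as Ikaros targets were on balance lower. Of 11 tested, 1 was past both thresholds and higher and 4 were past both and lower, against 7.74% and 11.7% of all genes, and the median log2 fold change was -0.68. Ccnd2, a D-type cyclin, went from 41.3 and 41.6 CPM to 8.05 and 5.88 CPM (log2 fold change -2.54, SE 0.17). Dntt, the terminal transferase that adds bases at V(D)J junctions, went from 1479 and 1531 CPM to 462 and 517 CPM (-1.62, SE 0.13). Both groups were far apart in these genes.

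Cd8b1 (-1.29, SE 0.17) and Cd4 (-1.16, SE 0.11), the genes of T-cell coreceptors, were also past both thresholds and lower. At the adjusted p alone 3 more were lower, Cd8a (-0.89), Ccnd3 (-0.68) and Bcl2l1 (-0.40), and 2 genes were higher, which makes 7 of 11 lower and 2 of 11 higher against 25.4% and 27.0% of all genes. The higher ones were Cdk6, a kinase that partners D-type cyclins, from 24.9 and 36.1 CPM to 59.8 and 69.2 CPM (1.09, SE 0.19), and Rag2 (0.64). Without GSI replicate 1, Cdk6 was at 0.83 and no gene of this list was past both thresholds and higher. Bcl2l1 and Rag2 lost their adjusted p when certain libraries were left out, Bcl2l1 without either GSI replicate or Washout replicate 2, and Rag2 without GSI replicate 1 or Washout replicate 2. With all libraries kept, neither passed when GC content and length were corrected for (Bcl2l1 adjusted p = 0.313, Rag2 adjusted p = 0.142, edgeR). Rag2 did not pass under total-count scaling either (adjusted p = 0.0859, edgeR). Igll1, Vpreb1 and Il2 were too low to test, with Il2 at 0 in every library.

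**Figure D4:**
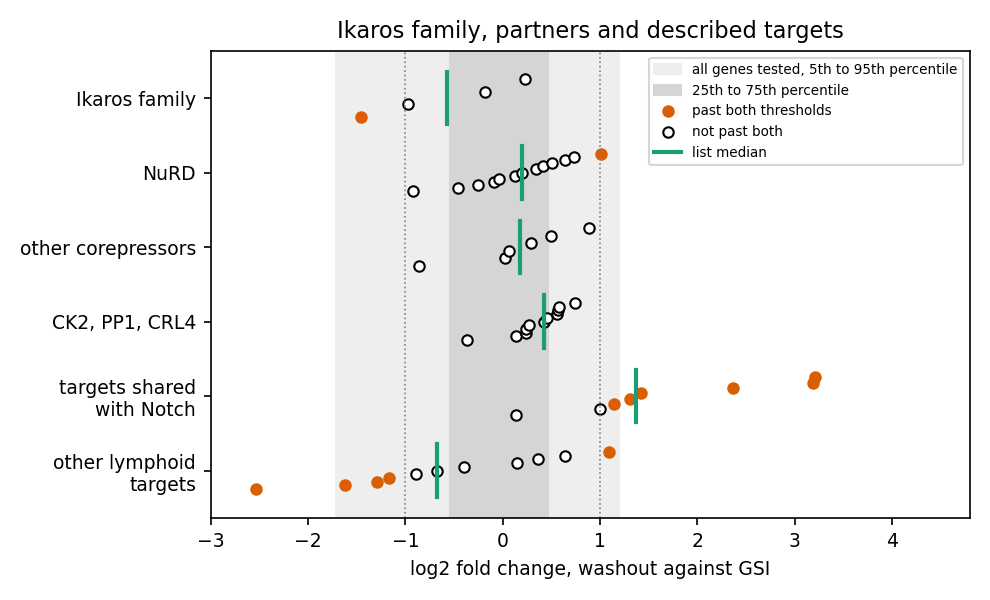
Log2 fold change, Washout against GSI, of the tested genes of the Ikaros family, its partners and its described targets, with 1 point per gene (orange where past both thresholds), green bars for list medians and grey bands for the percentiles of all genes tested. The targets shared with Notch lie to the right with a median of 1.37, the other lymphoid targets mostly to the left with a median of -0.68, and the partner lists lie between log2 fold changes of -0.92 and 1.01.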

How the data were processed

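Total RNA of Beko cells was sequenced as 4 stranded libraries depleted of ribosomal RNA. After trimming with trimGalore, the authors aligned reads to mm9 using HISAT2 (2.2.1 in the submitters' processing notes). Reads on each gene of the iGenomes annotation were then counted by summarizeOverlaps. The strand setting and overlap mode are not given in the sources used here. The deposited counts are raw, whole and separate for each library.

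Groups were tested by edgeR 4.0.16 under R 4.3.3 (filterByExpr, TMM factors, quasi-likelihood test, no covariates, Benjamini-Hochberg adjustment over 12266 genes). Fold changes carry a prior count of 0.125. Intervals and floors from counts cover counting error only. The chi-square per degree of freedom between replicates was 18.3 in GSI and 28.8 in Washout, above sampling noise. Positions, exon lengths and GC content came from GENCODE vM1 (mm9), in which 20641 symbols matched a single gene. RPKM is CPM divided by exon length in kilobases. The test was checked on simulated data.

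Named genes were every member, the nearest gene on each side and overlapping genes, the 3 most alike genes per tested member, and up to the 4 largest rises and falls past both thresholds per list. Others are marked as named after their values were seen. The members and lists were chosen with earlier results of these data known. Alternatives were DESeq2 1.42.0, RLE factors, total counts, other filters, the replicate number as a block, thinning, a GC and length correction, a prior count of 2, and leaving out each library, which assumes that a lone library varies like the other group. The search for GGGAA was added after seeing the data.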

Additional observations from a re-analysis of the deposited data

How the results depend on the processing

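Ikzf2 was past both thresholds under all 14 alternatives, and Ikzf1 under 6 of them. Its log2 fold change was -1.17 with total counts, -1.01 with at least 10 counts in every library, -1.01 with thinned counts and -1.01 with thinned counts and the block, and between -1.05 and -0.87 leaving out 1 library. Members past both thresholds and lower then numbered 2 under each of these 4 settings, and 1 to 2 leaving out a library. Ikzf3 turned to 0.036 (adjusted p = 0.722, edgeR) with the GC and length correction, and its other values ran down to -0.38. NuRD genes past both and higher numbered 0 with total counts, at least 10 counts, thinning, thinning with the block and the GC correction, and 0 to 1 leaving out a library, and 1 was lower with total counts. Other lymphoid targets past both and higher numbered 0 with total counts and 0 to 1 leaving out a library. Of all genes, 586 were past both and higher with total counts, against 950, and 1963 were past both and lower, against 1437. In shares of CPM rather than RPKM, Ikzf2, Ikzf3 and Ikzf5 changed by -3.47, 6.51 and 4.16 percentage points. Grb7 turned to -0.19 with total counts, -0.026 with at least 10 counts, and ranged from -0.29 to 0.31 leaving out a library. Acadsb then ranged from -0.47 to 0.056, and Notch3 from -0.052 to 0.36 with -0.059 under total counts. With the GC correction Notch3 was at 0.72 (adjusted p = 0.0030, edgeR). Chd4 turned to 0.30 with the GC correction (adjusted p = 0.0305, edgeR). The cause of these shifts was not tested, except that the leave-one-out fits hold fewer libraries. Replicate numbers were shared by label alone, with a correlation of 0.497 between same-numbered deviations over 2 pairs. With the replicate block, 981 genes were higher and 1576 lower, and Ikzf5 had an adjusted p of 0.0286, which was 0.0693 with thinned counts and the same block (edgeR). Depth limits Ikzf4 most, with 5 counts over both Washout libraries.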
